A study of Mus musculus with 8 samples.

Results

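The 10 genes described here encode the histone variant H3.3 and the proteins that carry it into chromatin. They are H3f3a and H3f3b, the subunits of the HIRA complex (Hira, Ubn1, Ubn2 and Cabin1), the ASF1 chaperones (Asf1a and Asf1b), and Atrx with Daxx. They were chosen by symbol, and all 10 were found in each of 4 tables of the authors' own comparisons, which together list 16896 genes. The tables come from TT-seq, in which cells receive a short pulse of the uridine analogue 4-thiouridine so that RNA made during the pulse can be pulled out and sequenced. The pulse was 500 nM for 5 min.

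All 8 libraries are from E14 (ES-E14TG2a), mouse embryonic stem cells grown as an established line. The mutation studied replaces a lysine of H3.3 with alanine (K122A, written A in the genotypes), at either or both of the genes that encode the protein. The dual-targeted group holds 3 lines with 3 mutant alleles of 4. Of these, 2 are clones of 1 genotype, H3f3a A/A H3f3b WT/A, called the clones below, and keep 1 unmutated H3f3b allele. The third dual-targeted line is H3f3a WT/A H3f3b A/A and keeps 1 unmutated H3f3a allele. The single-targeted group has 2 lines with 2 mutant alleles, both in the same gene. One is H3f3a A/A H3f3b WT/WT. The other is H3f3a WT/WT H3f3b A/A. Wildtype cells gave 3 libraries. A mutant line entered with a single library, so error within a mutant group mixes differences between lines with technical error, and no genotype other than that of the clones was repeated. The growth protocol gives serum medium with LIF and a version with 2 inhibitors added, and does not say which these libraries had. Of 10 embryonic stem cell markers, 10 had a row in every table, with summed mean counts between 18480 and 20826. They moved with the groups: 7 of 10 were called higher in dual-targeted lines (median log2 fold change 0.68), where 10.8% of all genes were. In the clones 6 were called higher (9.05% of all genes). The count was 1 in single-targeted lines (1.49%) and 2 in dual-targeted against single-targeted lines (4.37%). In every comparison 0 were called lower, where between 1.47% and 10.3% of all genes were. The fibroblast markers Col1a1, Col1a2 and Col3a1 had no row, and Thy1 with Vim summed to between 203 and 301. Vim was called higher in dual-targeted lines by the authors' deposited table (0.72 ± 0.28, adjusted p = 0.0146). Among trophectoderm markers, whose sums were between 12.4 and 70.0, the authors' deposited table called Krt8 higher in dual-targeted lines (2.21 ± 0.65, adjusted p = 6.22e-04), and the rebuilt mean of Krt18 was 14.1 in the clones, 115 in the third dual-targeted line and 11.5 in wildtype. Of the endoderm markers, whose sums were between 15.1 and 44.8, the authors' deposited table called Sox7 higher in dual-targeted lines (1.57 ± 1.11, adjusted p = 0.0319). Its mean count was 7.29, where the lowest of any gene in that comparison was 6.18. The authors' deposited table did not call Gata4 (0.11 ± 0.34, adjusted p = 0.715) or Gata6 (0.34 ± 0.54, adjusted p = 0.206) there. The part of these markers in the results below was not tested.

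Most H3 is made in S phase and packaged behind the replication fork, but H3.3 is made throughout the cell cycle and is deposited without DNA synthesis. The HIRA complex places it at active genes and regulatory elements, and ATRX with DAXX places it at telomeres, pericentric repeats and silenced retroelements. ASF1 proteins bind the H3-H4 dimer and hand it to HIRA or to the replication-coupled chaperone CAF-1. The lysine replaced here lies on the lateral surface of the histone core, where H3 contacts DNA, and can be acetylated.

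H3f3a and H3f3b encode the same protein from different DNA. The 136 residues are identical, while 316 of 411 coding bases are (76.9%), and the longest run of bases the 2 coding sequences share is 23. The mutated codon lies in exon 4 of 4 in each gene, in H3f3a at chr1:180803119-180803121 and in H3f3b at chr11:116023449-116023451 (GRCm38, both on the minus strand). The reference coding sequence around it (GENCODE, release 21 of the mouse annotation) is shown because the targeted site is what separates the groups, with the codon of that lysine in capitals.
H3f3a: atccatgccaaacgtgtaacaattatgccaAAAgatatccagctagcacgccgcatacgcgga
H3f3b: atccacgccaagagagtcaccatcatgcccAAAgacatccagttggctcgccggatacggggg
The H3f3a coding sequence shares runs of up to 267, 110 and 155 bases with its processed copies H3f3c, H3f3a-ps1 and H3f3a-ps2, and H3f3b shares at most 23 with any of them. None of these 3 copies had a row in the tables, and the handling of reads that fit both H3f3a and a copy is not stated, which leaves H3f3a values uncertain to that extent.

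The 2 genes also differ in the DNA before their start sites, given here for both because their labelled RNA differed between the lines in different ways. Each line holds the 250 bases upstream of the RefSeq start (GRCm38.p6), with matches on either strand to the CCAAT box, to the TATA box as TATAAA, to the octamer, which reads ATTTGCAT, and to the cAMP response element, which reads TGACGTCA, all in capitals.
H3f3a: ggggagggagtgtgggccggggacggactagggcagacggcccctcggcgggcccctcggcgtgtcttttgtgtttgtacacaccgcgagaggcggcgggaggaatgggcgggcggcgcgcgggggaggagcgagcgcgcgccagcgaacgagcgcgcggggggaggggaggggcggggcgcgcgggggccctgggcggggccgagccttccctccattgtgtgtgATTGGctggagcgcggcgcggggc
H3f3b: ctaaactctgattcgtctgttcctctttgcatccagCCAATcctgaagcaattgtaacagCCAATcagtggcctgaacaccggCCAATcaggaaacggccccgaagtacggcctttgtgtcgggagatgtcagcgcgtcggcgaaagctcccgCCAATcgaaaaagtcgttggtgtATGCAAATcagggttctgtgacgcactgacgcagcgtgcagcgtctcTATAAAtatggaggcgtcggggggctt
The H3f3a stretch (chr1:180813606-180813855, minus strand) is 77.2% G or C and holds 1 CCAAT match and none of the other 3 motifs. The H3f3b stretch (chr11:116024505-116024754, minus strand) is 54.0% G or C and holds 4 CCAAT matches, 1 octamer and 1 TATAAA. Among 32851 promoters of the same length, 33.8% hold a CCAAT match, 0.84% hold 4 or more, 1.60% hold an octamer and 12.4% hold a TATAAA. The median promoter is 52.4% G or C. These are matches of letters, not tests of binding.

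The tables hold no column per library. Group levels were therefore rebuilt from the authors' means by subtraction, as mean normalized counts set on the scale of the table of dual-targeted and wildtype libraries. They carry no error. That of the third dual-targeted line is 1 library, reached by 2 subtractions, and is the least certain of them. In bulk RNA fewer cells making a transcript and less transcript per cell cannot be told apart.

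H3f3b, the more abundant of the H3.3 genes in wildtype cells, separated the dual-targeted lines from each other. Its rebuilt mean was 4846 normalized counts in the clones, 367 in the third dual-targeted line, 1877 in the single-targeted group and 2514 in wildtype cells. The clones stood at 1.93 times wildtype and the third dual-targeted line at 0.146 times, so the clones were 13.2 times that line. The clones carry 1 mutant H3f3b allele and the line carries 2. Only the rise in the clones could be tested: the authors' deposited table gave H3f3b a log2 fold change of 0.84 ± 0.27 (SE, 2 clones and 3 wildtype libraries), with an adjusted p of 0.00351. With all 3 dual-targeted lines in the group, the authors' deposited table gave 0.06 ± 0.36 and an adjusted p of 0.8. The rebuilt means of the lines in that group lay on opposite sides of wildtype.

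**Figure D1:**
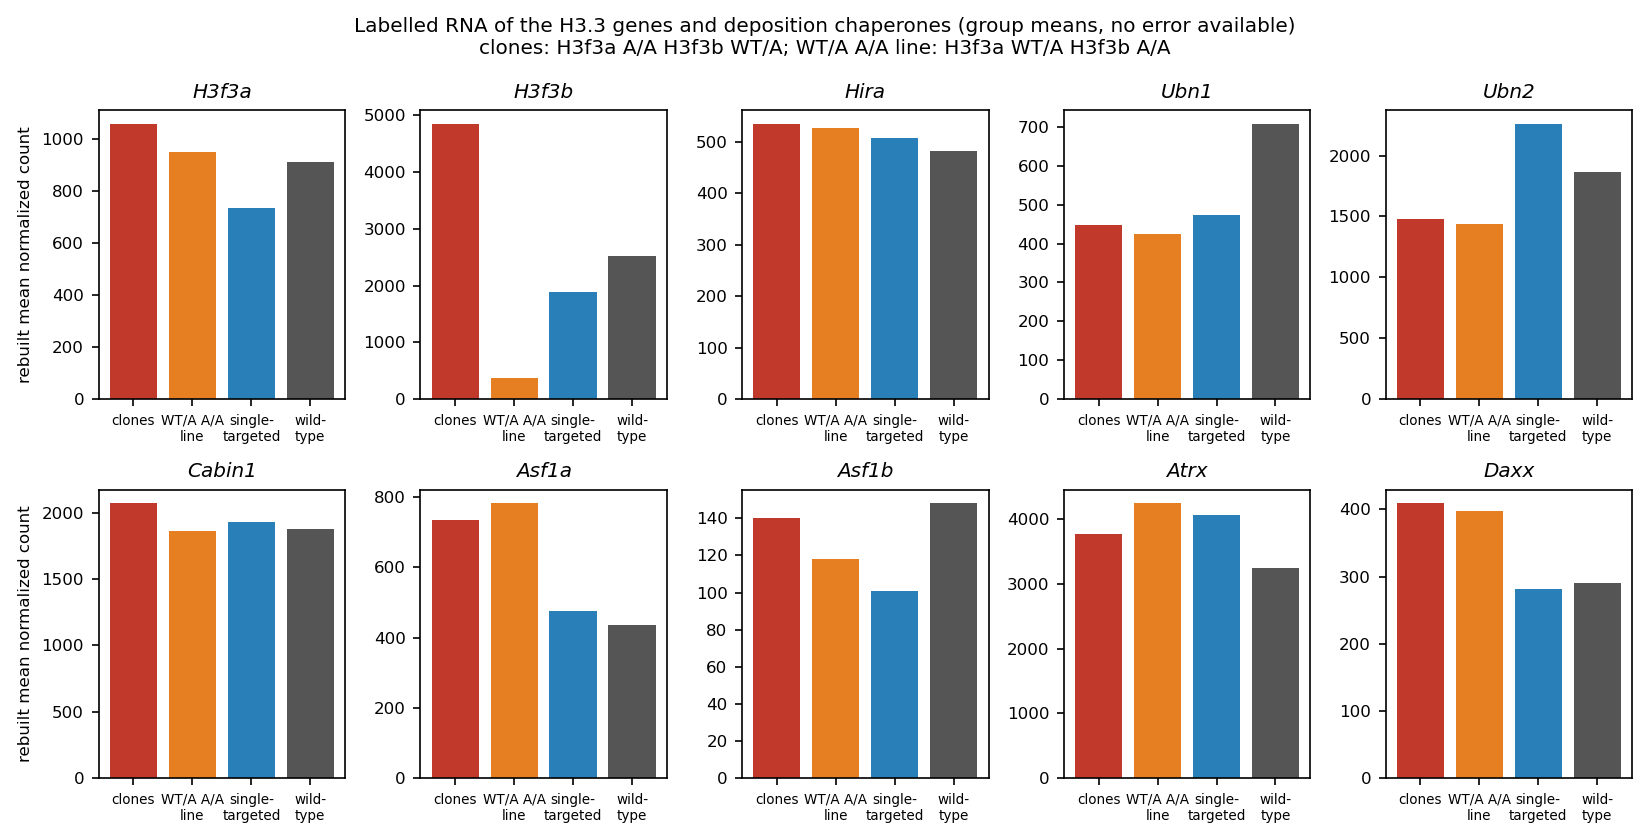
Rebuilt mean normalized counts (vertical axes, each from 0) of the 10 genes in the clones (mean of 2 libraries), the third dual-targeted line (1 library), the single-targeted group (mean of 2) and wildtype (mean of 3); bars have no error. H3f3b runs from 4846 in the clones to 367 in the third dual-targeted line, while for the other 9 genes the clones and that line are close.

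The gap at H3f3b was among the widest in the data. The ranks cover 11099 genes whose mean count reached 50 in every table and whose rebuilt mean was positive in every group. A gene with a rebuilt mean below 0 could not be ranked. Of these 11099 genes, 2 had a lower ratio of the third dual-targeted line to the clones than the log2 of -3.72 for H3f3b (median over genes -0.02). These were the mitochondrial ribosomal RNA genes mt-Rnr1 and mt-Rnr2, named after their values were seen. Against wildtype, 5 of the same genes had a lower ratio in that line than the log2 of -2.78 for H3f3b (median -0.01), namely Lrrc31, Acss1, Tarm1, Gm43568 and Fgf1, also named after their values were seen. Both are ranks of rebuilt means, with no test. The level of 367 depends on how the tables are scaled to each other, and with scales set on genes of at least 500 mean counts it was 298. With no scaling, or with scales set on summed counts, the subtraction gave values below 0, at -406 and -428, so no ratio can be given for that line under those scales.

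**Figure D2:**
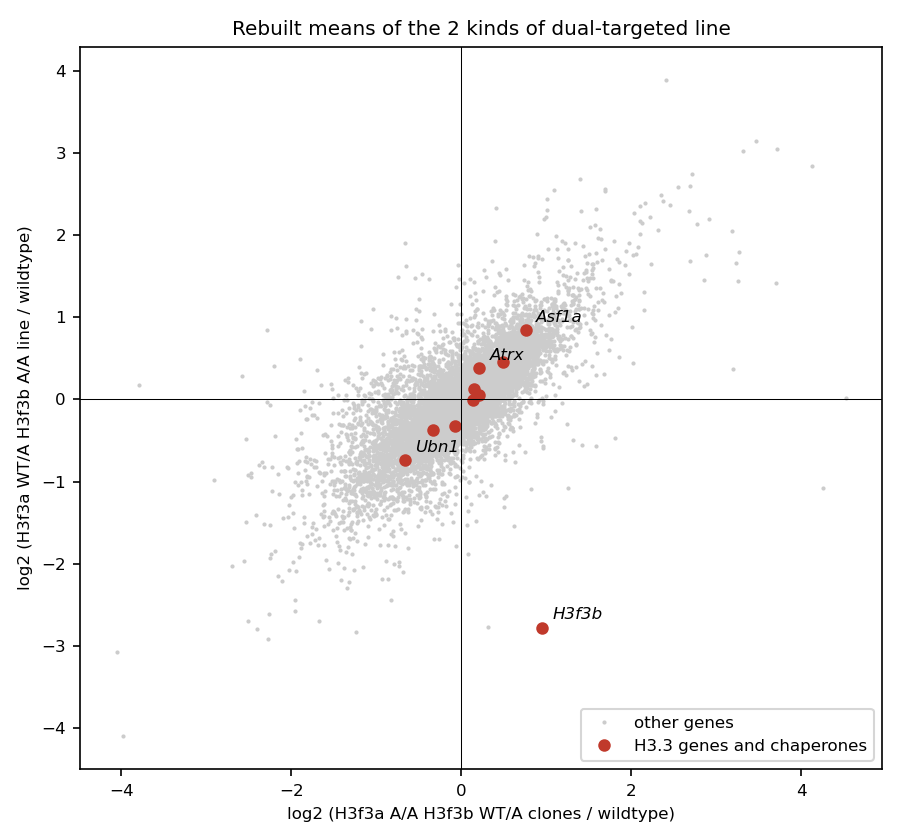
Each point is a gene whose mean count reached 50 in every table, placed by its log2 ratio to wildtype in the clones (horizontal) and in the third dual-targeted line (vertical), from rebuilt means; both axes share the wildtype libraries, so the trend along the diagonal is partly built in. H3f3b sits at 0.95 and -2.78, apart from the other 9 H3.3 and chaperone genes.

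A second measure of spread at H3f3b comes from the deposited p-values. Dividing a rebuilt log2 ratio by the z that its p corresponds to gives an implied standard error before shrinkage, which depends on how the tables are scaled. For H3f3b it came to 0.93 with all dual-targeted lines against wildtype, and to 0.261 with the clones alone. For all dual-targeted lines against wildtype it was 0.577 with no scaling between tables and 0.00105 with scales set on summed counts, where the ratio itself was 0.00. With the median of all genes taken off, it was 0.968 and 1.20 under the same scalings. It was 0.917 for the single-targeted group against wildtype, and over the other scalings ran from 0.723 to 1.35. The division was made only where z was at least 0.4 in size. H3f3b was close to that limit, at 0.46 in this comparison and 0.447 in dual-targeted lines against wildtype. In the single-targeted comparison 1317 genes of at least 1000 mean counts met the limit. Their median was 0.197, and 0.152% of them exceeded H3f3b. Genes with a smaller z are left out of that share. For the other members that met the limit, the largest value in any comparison was 0.289. The comparison of the clones used the same 3 wildtype libraries. The single-targeted lines differ in which gene is mutated, and which of them had more H3f3b RNA cannot be read from their mean of 1877. The authors' deposited table gave H3f3b -0.01 ± 0.17 in single-targeted lines (adjusted p = 0.908) and 0.03 ± 0.25 in dual-targeted against single-targeted lines (adjusted p = 0.758).

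H3f3a varied far less. Its rebuilt mean was 1057 in the clones, 949 in the third dual-targeted line, 736 in the single-targeted group and 912 in wildtype, and relative to the median of all genes its log2 ratio kept its sign under every scaling tried. The authors' deposited table called H3f3a in no comparison, with log2 fold changes of 0.17 ± 0.22 in the clones (adjusted p = 0.589), 0.13 ± 0.19 in dual-targeted lines (adjusted p = 0.633) and -0.12 ± 0.18 in single-targeted lines (adjusted p = 0.674). Dual-targeted against single-targeted lines gave 0.36 ± 0.22 in the authors' deposited table, with an unadjusted p of 0.0229 and an adjusted p of 0.143.

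Summed over the pair, labelled H3.3 RNA came to 5903 normalized counts in the clones, 1316 in the third dual-targeted line, 2613 in the single-targeted group and 3425 in wildtype. H3f3b made up 82.1% of the sum in the clones, 27.9% in the line, 71.8% in the single-targeted group and 73.4% in wildtype. Per kb of annotated exon, H3f3b stood at 1628 in the clones, 123 in the line, 631 in the single-targeted group and 845 in wildtype. H3f3a stood at 302, 271, 210 and 260 per kb in the same order of groups. The order of the 2 genes was thus turned round in the third dual-targeted line, which was not tested.

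The nearest genes on either side of H3f3b were closer to wildtype in that line, though others within 200 kb were low. Distances are taken from the outermost GENCODE start of H3f3b (chr11:116027962), which lies upstream of the RefSeq start whose promoter is printed above. Unk, which starts at -2360 bases from that GENCODE start (negative is upstream), was at 450 normalized counts in the line and 580 in wildtype, a ratio of 0.777. Galk1, the galactokinase gene whose start is 15243 bases downstream, was at 120 in the line and 110 in wildtype. Over the 14 other genes that start within 200 kb of H3f3b, the ratio of the line to wildtype had a median of 0.883 and ran from 0.249, for the weakly labelled Trim65, to 1.76 for Mrpl38. In the clones, the authors' deposited table called 2 of these neighbours higher, Mrpl38 (0.97 ± 0.28, adjusted p = 0.00119), a mitochondrial ribosomal protein gene, and Sap30bp (0.60 ± 0.24, adjusted p = 0.0243). It called Wbp2 lower (-0.58 ± 0.25, adjusted p = 0.0375, the authors' deposited table). All genes tested in the clones were called higher at 9.05% and lower at 10.3%. In dual-targeted lines the authors' deposited table called Mrpl38 (0.91 ± 0.24, adjusted p = 5.32e-04) and Sap30bp (0.51 ± 0.21, adjusted p = 0.0317) higher. Trim65 (-1.07 ± 0.51, adjusted p = 0.0195) and Wbp2 (-0.57 ± 0.22, adjusted p = 0.0183) were called lower there, again by the authors' deposited table. Of the 14 neighbours 2 were thus higher and 2 lower in dual-targeted lines, where 10.8% and 10.1% of all genes were.

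**Figure D3:**
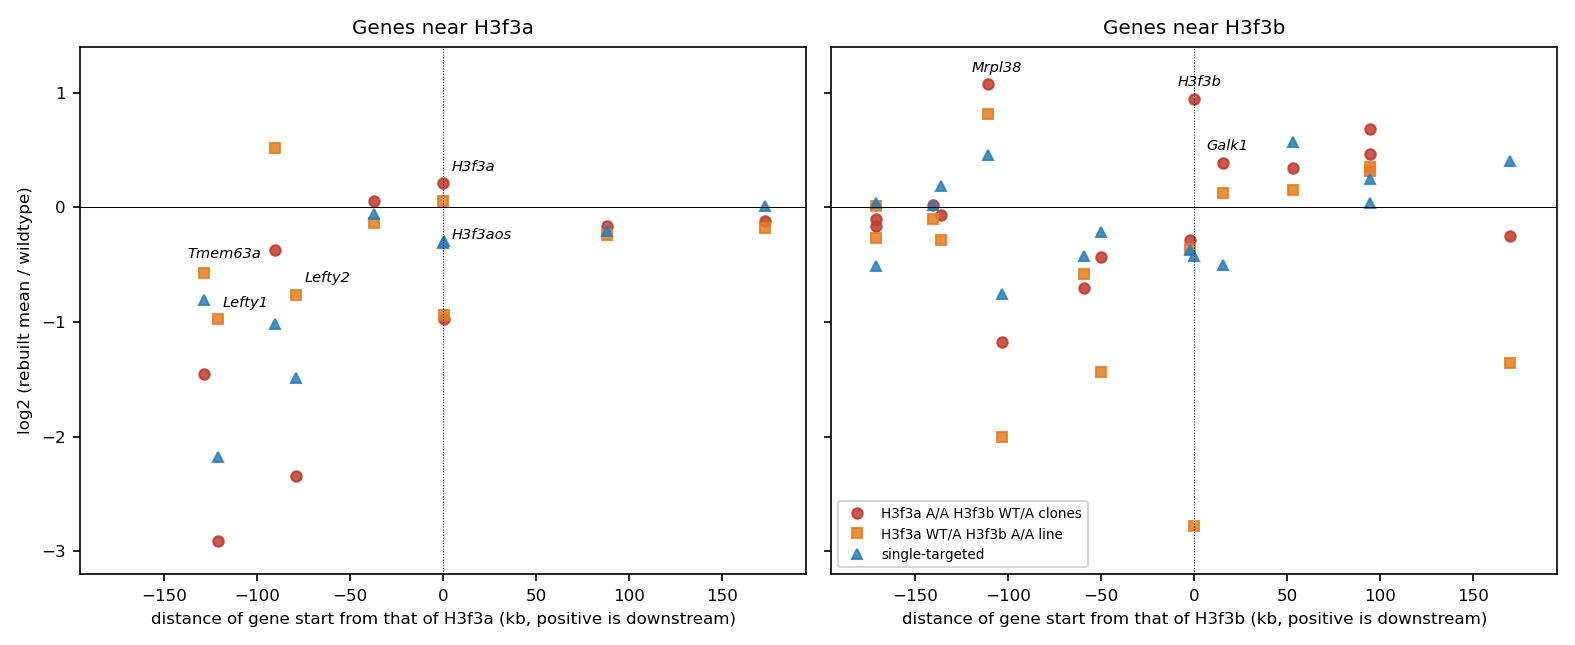
Log2 ratio to wildtype of the rebuilt means (vertical) for genes that start within 200 kb of H3f3a (left) and H3f3b (right), by distance of the gene start in kb (horizontal, positive is downstream of the named gene). The value of -2.78 for the third dual-targeted line at H3f3b is the lowest for that line in either panel, with some neighbours also low. The lowest points upstream of H3f3a are Lefty1 and Lefty2 in the clones. Lefty1 and Lefty2 in the single-targeted group and Tmem63a in the clones follow.

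Around H3f3a the picture differed, since neighbours moved and H3f3a was not called. H3f3aos, a noncoding gene on the opposite strand whose annotated start (chr1:180813776-180816859) lies inside the H3f3a promoter stretch printed above, was at 59.0 normalized counts in the clones, 60.4 in the third dual-targeted line, 94.8 in the single-targeted group and 116 in wildtype. By the authors' deposited table it fell in dual-targeted lines (-0.83 ± 0.29, adjusted p = 0.00555) and in the clones (-0.80 ± 0.33, adjusted p = 0.0178). Both kinds of dual-targeted line were near 0.5 times wildtype (ratios 0.508 and 0.521). Its annotation overlaps that of H3f3a by 168 bases, and use of strand in counting is not stated, so some of its reads may belong to H3f3a. Farther upstream of H3f3a lie Lefty1 and Lefty2, secreted inhibitors of Nodal signalling. In the clones the authors' deposited table gave Lefty1 -2.80 ± 0.29 (adjusted p listed as 0) and Lefty2 -2.23 ± 0.30 (adjusted p = 1.02e-12). Their neighbour Tmem63a also fell in the clones (-1.33 ± 0.29, adjusted p = 1.04e-05, the authors' deposited table). These 3 fell in dual-targeted lines too, at -1.32 ± 0.87 (adjusted p = 0.0284), -1.02 ± 0.75 (adjusted p = 0.0442) and -0.97 ± 0.29 (adjusted p = 0.00132), all from the authors' deposited table. The authors' deposited table called Lefty2 lower in single-targeted lines (-1.35 ± 0.33, adjusted p = 3.85e-04). It did not call Lefty1 there (-0.10 ± 0.22, adjusted p = 0.0845), though the rebuilt mean of Lefty1 was 193 in that group and 874 in wildtype. Of 8 neighbours of H3f3a, 4 were thus lower in the clones, where 10.3% of all genes were. In dual-targeted lines 4 were lower, where 10.1% of all genes were.

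Of the 10 members, the authors' deposited tables called 2 in dual-targeted lines against wildtype, where 20.9% of all genes tested were called. The count was 3 in the clones against wildtype (19.3% of all genes), 0 in single-targeted lines against wildtype (2.96%) and 1 in dual-targeted against single-targeted lines (7.06%). In single-targeted lines 1.49% of all genes were called higher and 1.47% lower. With at most 3 genes behind each share, and shares near their backgrounds, these counts are no result about the members as a set. The 0 in single-targeted lines is by the authors' DESeq2 test alone, and 1 member had an unadjusted p under 0.05 there, against 12.4% of all genes. Comparisons with wildtype share the same wildtype libraries, so they are not independent of each other. The median log2 fold change of the members was 0.11 in dual-targeted lines, 0.15 in the clones, 0.00 in single-targeted lines and 0.05 in dual-targeted against single-targeted lines, and that of all genes lay between 0.00 and 0.01. Of 40 rebuilt log2 ratios of members to wildtype, 10 were at least 0.5 in size, and none of these changed sign under another scaling that gave a positive mean.

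**Figure D4:**
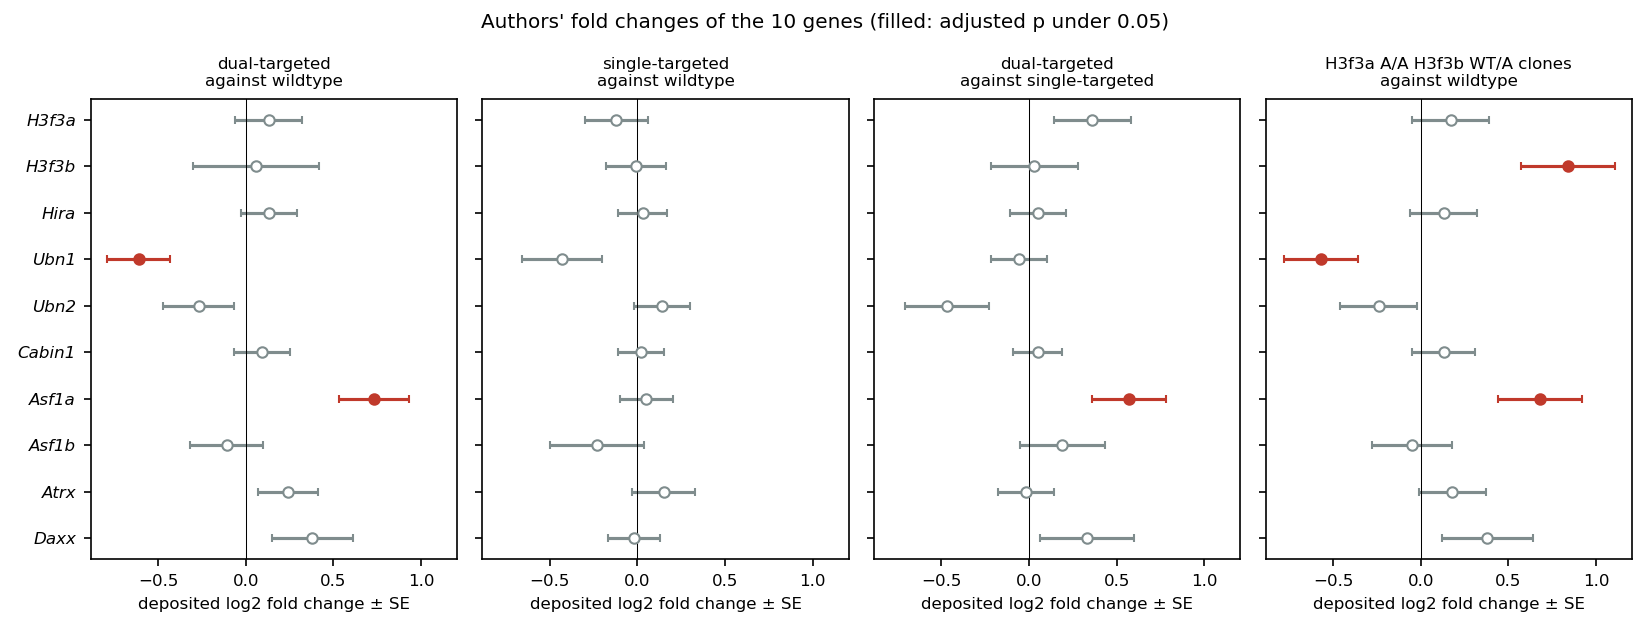
Log2 fold changes of the 10 genes with their standard errors as the authors deposited them (horizontal, positive is higher in the group named first), one panel per comparison; filled red points have an adjusted p under 0.05. Asf1a is filled at 0.73, 0.57 and 0.68, Ubn1 at -0.61 and -0.57, and H3f3b in the clones alone at 0.84.

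Within the HIRA complex, Ubn1 fell and the other subunits were not called. Ubn1 encodes ubinuclein 1, which binds the H3.3-H4 pair and gives the complex its preference for H3.3. Its rebuilt mean was 447 in the clones, 425 in the third dual-targeted line, 475 in the single-targeted group and 708 in wildtype, so all 3 mutant means lay between 0.6 and 0.671 times wildtype. The authors' deposited table gave Ubn1 -0.61 ± 0.18 in dual-targeted lines (adjusted p = 0.00233) and -0.57 ± 0.21 in the clones (adjusted p = 0.0173). Single-targeted lines gave -0.43 ± 0.23 in the authors' deposited table, with an unadjusted p of 0.00535 and an adjusted p of 0.111. Dual-targeted and single-targeted lines were set against each other directly at -0.06 ± 0.16 for Ubn1 (adjusted p = 0.815, the authors' deposited table), so no difference between lines with 3 and 2 mutant alleles was shown. The Ubn1 promoter is printed because Ubn1 was the member called lower.
Ubn1: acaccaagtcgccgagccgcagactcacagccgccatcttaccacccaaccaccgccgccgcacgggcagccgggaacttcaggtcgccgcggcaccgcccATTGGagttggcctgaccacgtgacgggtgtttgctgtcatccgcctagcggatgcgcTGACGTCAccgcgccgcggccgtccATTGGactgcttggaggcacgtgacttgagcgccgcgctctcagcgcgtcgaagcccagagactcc
It covers chr16:5049807-5050056 (plus strand) and holds 2 CCAAT matches and a cAMP response element, which 1.55% of promoters hold, with the same motifs in capitals as above.

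Ubn2, the paralogue of Ubn1, was at 1480 in the clones, 1440 in the third dual-targeted line, 2260 in the single-targeted group and 1866 in wildtype. Dual-targeted and single-targeted means thus lay on opposite sides of wildtype. The authors' deposited table gave Ubn2 -0.47 ± 0.24 in dual-targeted against single-targeted lines, with an unadjusted p of 0.00871 and an adjusted p of 0.0849. The authors' deposited table gave -0.27 ± 0.20 for dual-targeted lines against wildtype (adjusted p = 0.272), and 0.14 ± 0.16 for single-targeted lines (adjusted p = 0.632).

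Hira, the WD-repeat subunit that gives the complex its name, kept a narrow range, at 535 in the clones, 528 in the third dual-targeted line, 508 in the single-targeted group and 482 in wildtype. Its deposited log2 fold changes ran from 0.03 in single-targeted lines to 0.13 in the clones and in dual-targeted lines, with standard errors from 0.14 to 0.19 (authors' deposited table). Cabin1, the large calcineurin-binding subunit, was at 2069 in the clones, 1865 in the line, 1926 in the single-targeted group and 1874 in wildtype. Its deposited log2 fold changes were between 0.02 and 0.13 with standard errors between 0.13 and 0.18. Neither was called, and the lowest adjusted p was 0.587 for Hira and 0.641 for Cabin1 in the authors' deposited table.

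Of the ASF1 pair, Asf1a rose and Asf1b did not. ASF1A works with HIRA in replication-independent deposition, and ASF1B is more abundant in dividing cells. Asf1a was at 734 in the clones, 781 in the third dual-targeted line, 474 in the single-targeted group and 435 in wildtype, so both dual-targeted means were above the others. The authors' deposited table gave Asf1a 0.73 ± 0.20 in dual-targeted lines (adjusted p = 0.00106) and 0.68 ± 0.24 in the clones (adjusted p = 0.00948). Single-targeted lines stood at 0.05 ± 0.15 (adjusted p = 0.890). The difference itself was called, at 0.57 ± 0.21 in dual-targeted against single-targeted lines (adjusted p = 0.0208, the authors' deposited table), where 4.37% of all genes were called higher. With the trend of the test statistic on gene length taken out, that difference was no longer called (adjusted p = 0.0702). Asf1a lies wholly within Mcm9, a helicase gene on the opposite strand. Mcm9 was at 595 in the clones, 631 in the line, 677 in the single-targeted group and 714 in wildtype, and the authors' deposited table gave it -0.18 ± 0.18 in dual-targeted lines (adjusted p = 0.482). With strand use in counting not stated, reads from the 2 genes cannot be told apart, and the part of Mcm9 in the Asf1a values was not tested. The Asf1a promoter (chr10:53596711-53596960, plus strand) is printed as that of the member that rose, and holds 1 CCAAT match.
Asf1a: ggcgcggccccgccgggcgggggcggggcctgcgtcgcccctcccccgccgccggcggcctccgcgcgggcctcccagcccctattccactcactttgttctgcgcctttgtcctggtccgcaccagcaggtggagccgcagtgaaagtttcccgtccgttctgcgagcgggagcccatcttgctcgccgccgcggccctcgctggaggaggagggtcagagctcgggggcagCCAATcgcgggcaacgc

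Asf1b was the least labelled member, at 140 in the clones, 118 in the third dual-targeted line, 101 in the single-targeted group and 148 in wildtype. The authors' deposited table gave Asf1b -0.11 ± 0.21 in dual-targeted lines (adjusted p = 0.720), -0.05 ± 0.23 in the clones (adjusted p = 0.901) and -0.23 ± 0.27 in single-targeted lines (adjusted p = 0.388, unadjusted p = 0.0506). Asf1b lies on chromosome 8, whose genes as a whole were lower in the mutant lines, with a median log2 fold change of -0.32 over 626 genes in dual-targeted lines, -0.30 in the clones and -0.21 in single-targeted lines. Asf1b was close to the chromosome median in single-targeted lines and above it in the other groups. Relative to that median its direction turned round in dual-targeted lines and in the clones, in both cases uncalled.

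Atrx and Daxx, the remodelling ATPase and the H3.3-specific chaperone of the second deposition route, were not called in any comparison. Atrx was at 3765 in the clones, 4238 in the third dual-targeted line, 4060 in the single-targeted group and 3247 in wildtype, so wildtype had the lowest mean. The authors' deposited table gave Atrx 0.24 ± 0.17 in dual-targeted lines (adjusted p = 0.283), 0.18 ± 0.19 in the clones (adjusted p = 0.498) and 0.15 ± 0.18 in single-targeted lines (adjusted p = 0.597). Daxx was at 409 in the clones, 398 in the line, 281 in the single-targeted group and 291 in wildtype, with both dual-targeted means above the others. The authors' deposited table gave Daxx 0.38 ± 0.23 in dual-targeted lines, with an unadjusted p of 0.0447 and an adjusted p of 0.143. Dual-targeted against single-targeted lines gave 0.33 ± 0.27 for Daxx (unadjusted p = 0.0472, adjusted p = 0.212, the authors' deposited table).

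In wildtype cells the order of the members per kb of annotated exon was H3f3b at 845 normalized counts per kb, H3f3a at 260, Cabin1 at 154, Atrx at 149, Asf1a at 120, Daxx at 92.4, Ubn2 at 87.0, Ubn1 at 85.5, Hira at 77.6 and Asf1b at 63.2. Per kb of the whole gene, which counts intron length, H3f3b at 415 and H3f3a at 69.5 were again first, followed by Daxx at 47.1 and Asf1a at 34.9, and Hira came last at 5.17. Nascent RNA includes introns and the counted feature is not stated, and the order below the H3.3 genes differed between the 2 lengths, and no spread over libraries is known for it.

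The genes whose pattern over the single-targeted group, the clones and the third dual-targeted line was most like that of H3f3b were Robo4, Bdh2, Ampd3, Isoc2a and Slc9b2. They were the nearest by Euclidean distance between log2 ratios to wildtype, over these 3 groups. Candidates were named genes whose mean count reached 50 and whose rebuilt mean was positive in every group. Genes of the mitochondrial genome and microRNA genes were left out, so mt-Rnr1 and mt-Rnr2 were not candidates. The distances were large, from 1.25 for Robo4 to 1.73 for Slc9b2. All 5 were low in the line, at log2 ratios between -1.89 and -1.48, and among them Ampd3 was the highest in the clones, at 0.62 against 0.95 for H3f3b. None of the 5 came near H3f3b in both the clones and the line.

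Other genes of histone supply were read from 4 lists. Of 22 replication-coupled and general histone chaperones, 4 rose and 1 fell in dual-targeted lines (10.8% and 10.1% of all genes), with a median log2 fold change of 0.25 against 0.01 over all genes. Rbbp7 (0.60 ± 0.16, adjusted p = 9.57e-04), a histone-binding protein of several chromatin complexes, Nap1l1 (0.62 ± 0.19, adjusted p = 0.00343), a nucleosome assembly protein, and Npm3 (0.70 ± 0.25, adjusted p = 0.00897), of the nucleoplasmin family, were higher there by the authors' deposited table. Chaf1b, a subunit of CAF-1, fell (-0.51 ± 0.17, adjusted p = 0.00941, the authors' deposited table), and was at 558 in the clones, 575 in the third dual-targeted line, 576 in the single-targeted group and 837 in wildtype. In single-targeted lines 0 of the 22 were called in either direction, where 2.96% of all genes were. In dual-targeted against single-targeted lines 5 of the 22 rose and 0 fell (4.37% and 2.69% of all genes). The authors' deposited table called Chaf1a, the largest subunit of CAF-1 (0.59 ± 0.23, adjusted p = 0.0230), and Mcm2, a helicase subunit that also binds H3-H4 (0.66 ± 0.27, adjusted p = 0.0270), along with Anp32e (0.52 ± 0.19, adjusted p = 0.0242), a chaperone of H2A.Z, and Ssrp1 (0.60 ± 0.28, adjusted p = 0.0440), a subunit of FACT. Mcm2 was at 2262 in the clones, 2082 in the line, 1267 in the single-targeted group and 1935 in wildtype, with the single-targeted mean the lowest.

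In the clones 5 of the 22 rose and 2 fell (9.05% and 10.3% of all genes). By the authors' deposited table Rbbp7 (0.63 ± 0.19, adjusted p = 0.00349) and Npm3 (0.66 ± 0.29, adjusted p = 0.0304) rose there and Chaf1b fell (-0.49 ± 0.20, adjusted p = 0.0311). Supt16, the other FACT subunit, fell too (-0.59 ± 0.19, adjusted p = 0.00582, the authors' deposited table). It lies on chromosome 14, whose median in the clones was -0.51 over 397 genes.

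Of 12 measured partners of ATRX-DAXX and H3.3 in silencing, 2 rose and 0 fell in dual-targeted lines (10.8% and 10.1% of all genes), which is near the background. By the authors' deposited table these were Cbx5, which encodes the heterochromatin protein HP1 alpha (0.78 ± 0.16, adjusted p = 1.61e-05), and Zfp57, a zinc finger protein that keeps imprints (0.66 ± 0.20, adjusted p = 0.00228). In single-targeted lines 0 of the 12 were called, where 2.96% of all genes were. In the clones 2 of the 12 rose and 1 fell (9.05% and 10.3% of all genes), again near the background. The authors' deposited table called Cbx5 (0.82 ± 0.19, adjusted p = 8.37e-05) and Zfp57 (0.78 ± 0.22, adjusted p = 9.97e-04) higher there. Mphosph8, of the HUSH complex, fell in the clones (-0.92 ± 0.23, adjusted p = 1.82e-04, the authors' deposited table), and it too is on chromosome 14. Its mean was 616 in the clones and 1416 in the third dual-targeted line, with 1253 in wildtype. In dual-targeted against single-targeted lines Cbx3, another HP1 gene, rose (0.51 ± 0.21, adjusted p = 0.0359, the authors' deposited table), as 1 of the 12, where 4.37% of all genes rose.

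Of 9 remodellers and factors of replication-independent deposition, 2 rose and 0 fell in dual-targeted lines, where 10.8% and 10.1% of all genes did, and 0 were called in single-targeted lines, where 1.49% and 1.47% were. Chd4 encodes the remodelling ATPase of NuRD, and Hirip3 encodes a protein that binds HIRA. The authors' deposited table gave Chd4 0.67 ± 0.16 (adjusted p = 2.13e-04) and Hirip3 0.60 ± 0.23 (adjusted p = 0.0171) in dual-targeted lines. The same 2 of 9 were called higher in the clones, where 9.05% of all genes were. The authors' deposited table gave 0.64 ± 0.19 for Chd4 (adjusted p = 0.00319) and 0.58 ± 0.27 for Hirip3 (adjusted p = 0.0475) there. Both were also called higher in dual-targeted against single-targeted lines, where 4.37% of all genes were. The authors' deposited table gave Chd4 0.46 ± 0.18 (adjusted p = 0.0347) and Hirip3 0.97 ± 0.28 (adjusted p = 0.00339) in that comparison. Hirip3 was at 1423 in the clones, 1420 in the line, 668 in the single-targeted group and 879 in wildtype, so both dual-targeted means were above the others. Of 6 enzymes reported to act on the same lysine or on the H3.3-specific serine of the tail, the authors' deposited table called 1 in dual-targeted lines. This was the mitotic kinase Aurkb (-0.42 ± 0.18, adjusted p = 0.0482). Of all genes 20.9% were called there, so 1 of 6 is near the background. In the other 3 comparisons 0 were called. The share of all genes called was 19.3% in the clones, 2.96% in single-targeted lines and 7.06% in dual-targeted against single-targeted lines. With 6 genes these counts are no result about the enzymes.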

How the data were processed

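RNA labelled with 4-thiouridine was sequenced from 8 libraries. Reads were processed with STAR, SAMtools, featureCounts, DESeq2 and deepTools on mm10 or GRCm38.p6, per the submitters' processing notes, and versions and the strand setting are not given in the sources used here. The files are 4 tables of the authors' comparisons, each normalized separately, with 0 columns of values per library. Per the file headers, they hold the mean normalized count, treated as a signal, the log2 fold change, its standard error (a score on the log2 scale), a p-value and an adjusted p-value, all made by the authors before deposit. Fold changes are read as shrunken, since fold change over error was smaller than the p implies for 100% of the called genes checked. These were 3408 in dual-targeted lines, 443 in single-targeted lines, 926 in dual-targeted against single-targeted lines and 2980 in the clones, not every called gene. Members were called at an adjusted p under 0.05 over all genes. Depth per library is unknown, and the mean counts of the members were between 114 and 3760, 9 of 10 above the median gene of each table.

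With 4 means over known numbers of libraries, group means follow by subtraction, after scaling 3 tables by 0.983, 1.058 and 0.957 to bring the median gene of every group to its wildtype level. They had the sign of the deposited fold change for 100% of 2726, 387, 885 and 2504 called genes, where positive is higher in the group named first. In 2 of 15571 genes the third dual-targeted line came out below 0.

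Named genes are the 10 members, up to 4 called genes per list and comparison, called genes within 200 kb of H3f3a or H3f3b (1 is not reported here) and the 5 genes most like H3f3b. Members and lists were chosen with earlier results of these data known. The implied standard error, the promoter motifs, the scaling on genes with 500 counts and the removal of the all-gene median were chosen after the data were seen. Coordinates are from GENCODE mouse release 21 and promoters from RefSeq, which held all 10 members. Scripts were tested on simulated data with pandas 2.3.3, numpy 2.4.6, statsmodels 0.14.6 and scipy 1.17.1 under Python 3.11.15, and drawn with matplotlib 3.10.9.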

Additional observations from a re-analysis of the deposited data

Results flagged for a closer look

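Asf1a was flagged because it differed between the dual-targeted and single-targeted lines by the authors' own test. The number of mutant alleles cannot be told apart here from mutation of both genes or from differences between lines. The call was lost with the gene-length trend removed. The log2 fold change of dual-targeted against single-targeted lines was 0.57 ± 0.21 (SE, adjusted p = 0.0208, the authors' deposited table). The other 9 members were not called in that comparison.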

How the results depend on the processing

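No paired analysis was possible because the tables hold no values per library. For the same reason no single-targeted or wildtype library could be left out. Other thresholds, adjustments and centrings were applied to each member in each comparison, and 316 of 326 values kept their direction and side of the threshold. Changes of threshold, of adjustment or of the chromosomes kept use the deposited directions, so they could not turn one. Members far from every threshold also had little room to change side. The count of 316 was thus largely fixed in advance and is no measure of robustness. In dual-targeted against single-targeted lines the count of members called was 1, and became 0 at an adjusted p under 0.01, 2 under 0.1 and 0 with the gene-length trend removed. Without the third dual-targeted line, 3 members were called in dual-targeted lines in place of 2, and H3f3b gained its call (adjusted p = 0.00351). That setting is the authors' comparison of the clones with wildtype, already given above, so it is no separate check. Its values are counted among the 326. Directions turned round, all uncalled, for H3f3b in dual-targeted lines (0.971), Cabin1 in single-targeted lines (0.992) and Atrx in dual-targeted against single-targeted lines (0.834) with the length trend removed. They also turned for Asf1b relative to chromosome 8 in dual-targeted lines (0.568) and the clones (0.488), where these are adjusted p-values. Scales set on summed counts moved the median of all genes by -0.54 in dual-targeted lines, turned 13 of 39 rebuilt ratios and put H3f3b at 0.65 in the clones on the log2 scale, in place of 0.95 (1.14 with the median of all genes taken off). No scaling moved that median by up to -0.47, in the third line, and turned 9. Relative to the median of all genes 1 and 0 ratios turned, so these turns follow a shift of all genes. In the third dual-targeted line these scalings gave H3f3b -428 and -406, below 0. The cause of the differences was not tested. The members' deposited standard errors were between 0.13 and 0.36. Those implied for H3f3b reached 1.38 with the main scaling and 1.49 under other scalings with the median of all genes taken off.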
